A study of Homo sapiens with 4 samples.

Results

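Replication-initiation regions of RepID-depleted cells that lay deep inside stretches without any initiation region in RepID-proficient cells were examined. A member is a region of the nascent-strand list of HCT116 cells with a RepID knockout (KO) that lay on chromosomes 1 to 22, was narrower than 10 kb and had more than 100 kb between it and the nearest region of the list from HCT116 cells with unaltered RepID (WT). Members were therefore chosen by the positions of regions in the 2 lists and by width, so their number, their distance from WT regions and the emptiness of the WT list around them are descriptions and not findings. Of the 155735 KO regions narrower than 10 kb on these chromosomes, 21014 (13.5%) were members. The whole KO list holds 159667 regions.

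HCT116 is a colorectal carcinoma cell line, and its nascent DNA strands, 1 library per condition, were isolated from asynchronous cultures by size fractionation and digestion with λ exonuclease and then sequenced. The KO cells were made with CRISPR-Cas9 and a guide against the fourth exon of RepID and selected with puromycin for stable clones. The paper reports an immunoblot for RepID as its check of the HCT116 knockout. The methods do not say whether the sequenced cells came from 1 clone, and lists of regions cannot themselves check the loss of the protein. RepID binding comes from another line, U2OS osteosarcoma cells, which expressed RepID (also called PHIP) with a FLAG tag. Binding was measured by ChIP-Seq with an antibody against FLAG in 1 library. The 3 lists of called regions are on the hg19 build per the submitters' processing notes, and positions below are counted from 1.

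Replication of a mammalian chromosome begins at many origins, where helicases are loaded in G1 phase and a subset fires in S phase. The short, RNA-primed strands made at a firing origin resist λ exonuclease, and their enrichment over genomic DNA marks initiation. Initiation sites are unevenly spread, being dense in early-replicating, gene-rich chromatin and sparse in gene-poor chromatin that replicates late in S phase. RepID is a DNA-binding protein that associates with a subset of origins.

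On chromosomes 1 to 22 the KO list held 159441 regions and the WT list 77492, a ratio of 2.06. Read totals are not given, so depth is unknown, and more initiation in KO cells cannot be told apart from a more deeply sequenced or more loosely called KO library. Each condition has 1 library, so replicate error cannot be estimated and no difference between conditions was tested. The 95% intervals below cover counting error only, and they are too narrow where neighbouring regions are not independent. A WT desert here is a stretch of more than 200 kb between neighbouring WT regions, and its core is the part more than 100 kb from both. The word means that the WT list is empty there, not that WT cells never initiate there.

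WT deserts were numerous, and KO regions were present in most of them. There were 2408 deserts, which spanned 1100.5 Mb, or 39.4% of the 2795 Mb between the first and last WT regions of the chromosomes. Of these, 2100 (87.2%, 85.8 to 88.5%) held at least 1 member. The filled deserts spanned 962.4 Mb and had a median length of 353 kb, with quartiles at 273 and 516 kb. The median filled desert held 6 members, with quartiles at 3 and 13, and the most in any desert was 99. Only 248 deserts held a single member, whereas 766 held 10 or more, and those 766 accounted for 15573 members (74.1%). A further 7 members lay beyond the first or last WT region of their chromosome, where no desert length can be given.

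The share of deserts that held a member rose with length up to 500 kb, as did the room for members. Of the 591 deserts of 200 to 250 kb, whose cores are at most 50 kb long, 57.4% held a member. The share was 91.6% of the 431 deserts of 250 to 300 kb and 98.3% of the 520 deserts of 300 to 400 kb. All 300 deserts of 400 to 500 kb and 452 of the 453 deserts of 500 to 1000 kb held a member. The 308 deserts without a member were short, with a median length of 216 kb, and a KO region overlapped 302 of them. In 2 of these a KO region of 10 kb or more lay in the core. In the others the KO regions lay in or reached into the margins, within 100 kb of an edge. Among the deserts longer than 1000 kb, 10 of 113 held none, and each of those 10 contained a run of at least 1 Mb without a region of any list.

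The 5 longest deserts without a member were chr1:121430401-142618600, chr9:47268601-65500800, chr16:35148401-46461000, chr21:11170401-14408600 and chr20:26259201-29428400. In each of these a single KO-free run made up nearly the whole length, 21097.6 kb of 21188.2 kb on chromosome 1 and 18232.2 kb of 18232.2 kb on chromosome 9. Over all chromosomes there were 19 runs of at least 1 Mb without a region of any of the 3 lists, and they came to 98.4 Mb. Centromeres are unsequenced stretches in hg19, and how much of each run is unsequenced was not measured, since no hg19 genome was used here.

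Of the deserts without such a run, the longest with no member, picked out after their values were seen, were chr15:21396801-21903400 (506.6 kb), which held 1 KO region in its margins, and chr19:20714001-21106000 (392.0 kb), which held 7.

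**Figure D1:**
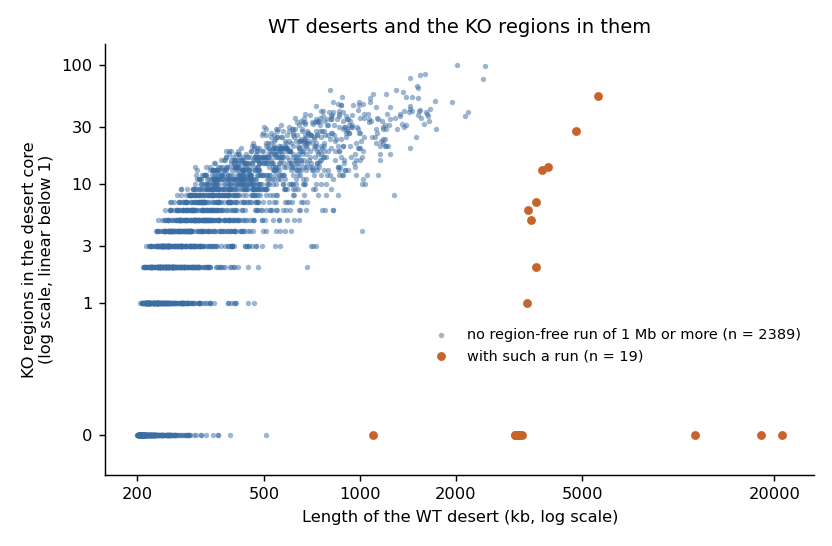
Each point is 1 WT desert, placed by its length in kb (log scale) and by the number of KO regions narrower than 10 kb in its core (log scale, linear below 1). Deserts without a region-free run of 1 Mb or more (blue, n = 2389) held more KO regions the longer they were, up to 99, whereas the 19 deserts with such a run (orange) include the 10 without a member that are longer than 1000 kb.

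Across the 2389 deserts without such a run, length and number of members had a Spearman correlation of 0.88. These deserts share the same 2 libraries, and a longer desert offers more room, so the value describes filling and is given with no test. The density of members was 44.2 per Mb of core in deserts of 200 to 250 kb, 47.2 in those of 300 to 400 kb, 40.2 in those of 500 to 1000 kb and 32.4 in those longer than 1000 kb. By this measure the longest deserts were the most sparsely filled.

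The density of KO regions fell with distance from WT regions, without a step at the 100 kb limit. With the region-free runs left out, there were 58.3 centres of KO regions per Mb at 2 to 10 kb from the nearest WT region, 51.1 at 20 to 50 kb and 47.9 at 50 to 100 kb. Just past the limit, at 100 to 150 kb, there were 46.0 per Mb. The density was 39.6 at 200 to 300 kb and 29.4 beyond 500 kb. For all positions more than 100 kb away the density was 41.1 per Mb, against 63.4 for all nearer positions. With the region-free runs counted as available length the first value was 34.7 per Mb (34.3 to 35.2). The runs were defined with the KO list as well, so leaving them out raises the density by construction. The share of positions covered by a KO region fell in the same way, from 14.8% at 50 to 100 kb to 14.0% at 100 to 150 kb and 8.36% beyond 500 kb.

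**Figure D2:**
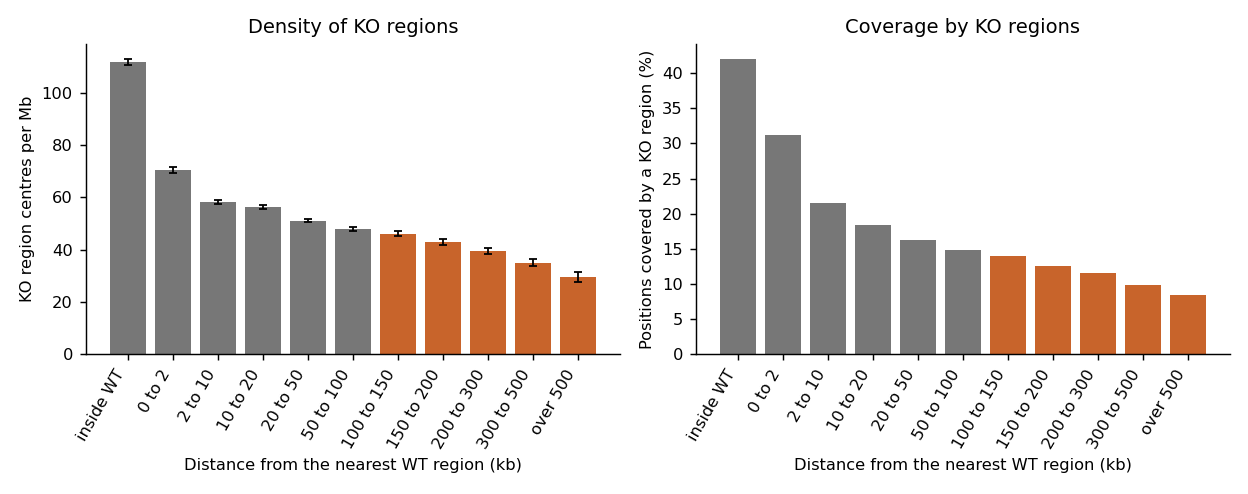
The left panel gives the number of centres of KO regions per Mb and the right panel the percentage of positions covered by a KO region, both by distance in kb from the nearest WT region and without region-free runs of 1 Mb or more. Orange bars mark distances over 100 kb, and error bars on the left are 95% Poisson intervals; the density declines from 46.0 per Mb at 100 to 150 kb to 29.4 beyond 500 kb.

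The desert with the most members was chr18:37423601-39445800. Its 2.02 Mb held 99 members with scores from 39 to 346 (median 120) and widths from 200 to 8600 bp (median 2800 bp). The gaps between neighbouring members ran from 0.8 to 100.4 kb, with a median of 9.9 kb. The member with the highest score ran from 39239401 to 39247200. KO regions covered 17.1% of this desert. KO regions were present along its whole length, with no KO-free stretch longer than 100.4 kb.

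The desert chr6:91659001-94126200 was the longest of those without a region-free run, at 2467.2 kb. It held 98 members with scores from 32 to 345 (median 110.5), and KO regions covered 11.2% of it. KO regions were closest together in its first 0.4 Mb, as the map of these deserts shows. The WT regions that bound it had scores of 149 and 476, and no KO region overlapped either.

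Next by number of members were chr4:20257401-21857000 with 84, chr14:25519801-27066000 with 82 and chr2:58657001-60097400 with 77. Median gaps between their members were 10.0, 8.2 and 7.1 kb. The WT region at the left edge of the chromosome 4 desert, chr4:20252601-20257400, had a score of 1936, overlapped a RepID-bound region and was overlapped by no KO region. The right edge region on chromosome 14 also overlapped a RepID-bound region and no KO region. In contrast, the left one on chromosome 2 overlapped both a RepID-bound region and a KO region. KO regions also overlapped the left edge regions on chromosomes 18 and 14 and the right ones on chromosomes 4 and 2, but not the right one on chromosome 18. When only the 77492 KO regions with the highest scores were kept, the length of the WT list, the 5 deserts still held 40, 35, 31, 42 and 34 members.

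**Figure D3:**
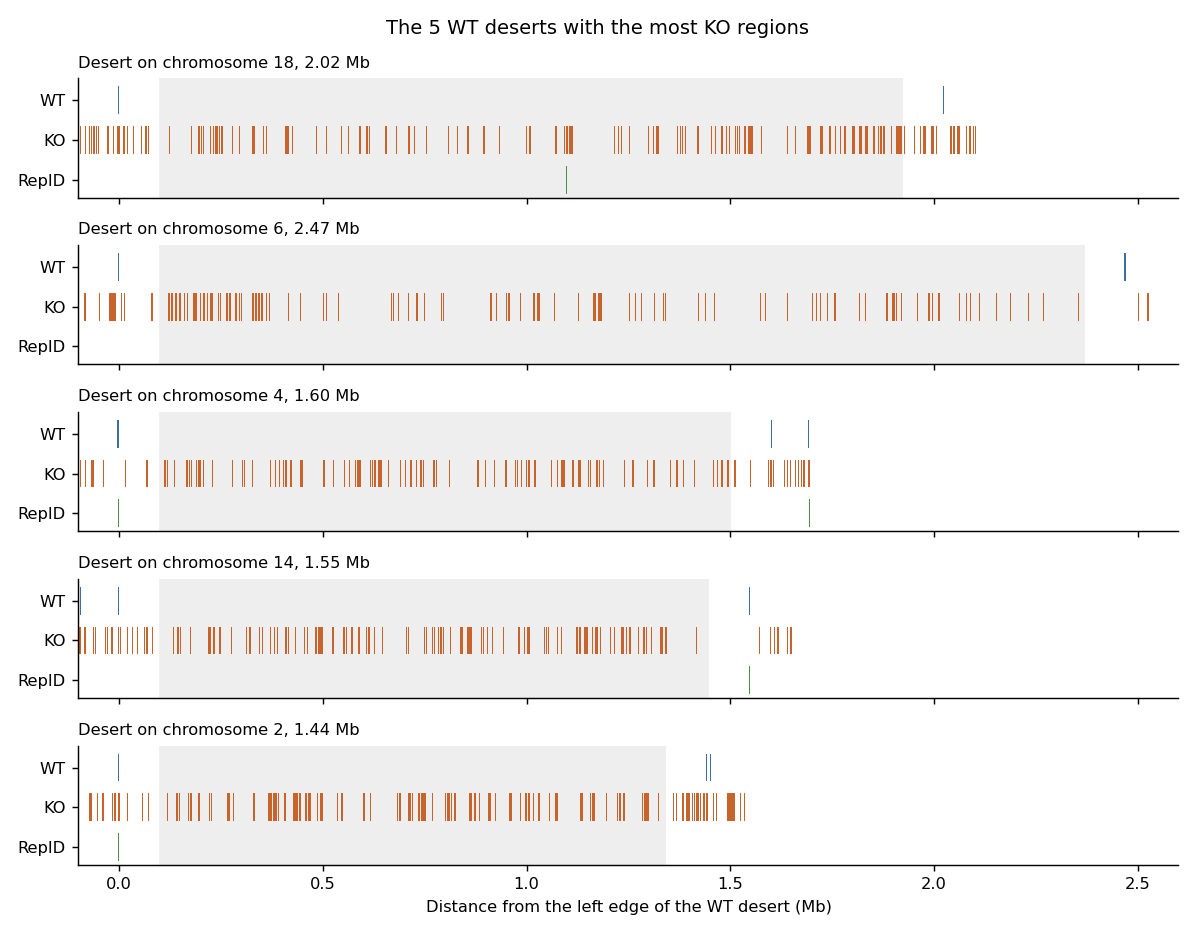
Each panel is a map of 1 of the 5 WT deserts with the most members, with the distance from its left edge in Mb on the horizontal axis and regions of the WT, KO and RepID lists as bars; grey marks the core. KO regions run through the cores, which hold 77 to 99 members each, and the RepID list has 1 region in the chromosome 18 core and none in the other 4.

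Density differed among the longer deserts. Among the 265 deserts with a core of at least 500 kb and no region-free run, the density of members ranged from 4.90 to 102 per Mb of core, with quartiles at 23.8 and 48.2 and a median of 33.3. These deserts were up to 2467.2 kb long, and the part of length in this range was not tested. The densest, picked out as the extreme, was chr3:64728401-65533800. Its 62 members had a median gap of 3.0 kb, and KO regions covered 31.7% of the desert. The thinnest was chr13:86428401-87444200, where 4 members stood in 1015.8 kb and a stretch of 500.4 kb had no KO region. In these 265 deserts the longest stretch without a KO region had a median of 109 kb, and in 5% of them it was longer than 287 kb.

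Neighbouring KO regions lay farther apart in deserts than elsewhere. The median gap between consecutive KO regions in the same core was 10.6 kb (order-statistic interval 10.4 to 11 kb, 19050 gaps), with quartiles at 3.8 and 24.6 kb. Between consecutive KO regions that were both outside cores it was 6.4 kb, and between those both 10 to 100 kb from a WT region it was 7.0 kb. The medians were not measured quite alike. A gap in a core cannot be longer than that core, whereas gaps outside cores had no such limit. Gaps shorter than 2 kb made up 14.0% of those in cores and 22.9% of those outside. No gap in the KO list was shorter than 800 bp, and all regions of the KO and WT lists lie on a grid of 200 bp.

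Deserts, counted with their region-free runs, took 4.86% of chromosome 22 and 7.62% of chromosome 19, which are gene-dense. They took 52.6% of chromosome 13 and 59.0% of chromosome 4, which are gene-poor. Members accordingly numbered 14 on chromosome 19 and 27 on chromosome 22, against 2197 on chromosome 4 and 2288 on chromosome 3. Members made up 25.4% of the KO regions narrower than 10 kb on chromosome 4 and 0.477% on chromosome 19. On chromosome 19 a single region-free run made up 3.21 of the 4.50 Mb in deserts. Within cores, without region-free runs, the density of KO centres ranged from 26.0 per Mb on chromosome 19, whose cores total only 0.692 Mb, and 28.7 on chromosome 21 to 70.9 on chromosome 17. Outside cores it ranged from 50.9 on chromosome 4 to 79.0 on chromosome 17. The density was lower in cores on all 22 chromosomes. The ratio of the 2 densities was closest to 1 on chromosome 17, where the 211 members had a median score of 150 and the other KO regions narrower than 10 kb had 149. The median score of members was lower than that of the other KO regions on 19 of 22 chromosomes, the exceptions being 17, 19 and 22.

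**Figure D4:**
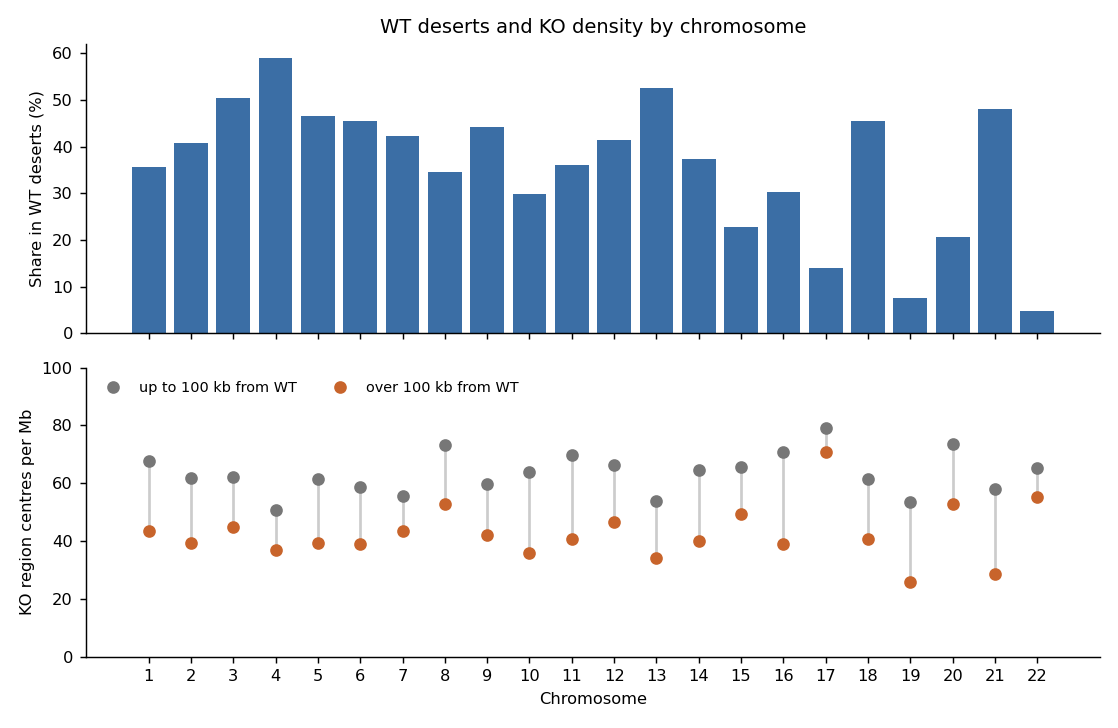
The upper panel gives the percentage of each chromosome, between its first and last WT regions, that lies in WT deserts. It runs from 4.86% to 59.0%, with region-free runs included. The lower panel gives centres of KO regions per Mb on each chromosome up to 100 kb from a WT region (grey) and farther away (orange, without region-free runs); the orange point is the lower one on all 22 chromosomes.

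Members were slightly weaker and narrower calls than the other KO regions. The score is 1 whole number per region that the authors deposited without stating its meaning, so it was compared only within the KO list. The median score was 115 (114 to 116) for members, with quartiles at 89 and 155. It was 120 for KO regions 10 to 100 kb from a WT region, 123 at 2 to 10 kb and 146 within 2 kb. Scores at or above the median of the KO list were held by 39.1% of members, against 59.7% of the regions within 2 kb of a WT region. The median width of members was 2600 bp, with quartiles at 1800 and 3600 bp. It was likewise 2600 bp at 10 to 100 kb from a WT region, with quartiles at 1800 and 3800 bp. At 2 to 10 kb it was 2800 bp, and within 2 kb of a WT region 3200 bp. Inside the deserts the median score went from 118 at 100 to 150 kb from a WT region to 110 beyond 500 kb.

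Within classes of width the scores were closer. Among regions over 1000 and up to 2000 bp wide, the median score was 85 for members and 89 for regions within 2 kb of a WT region. Over 2000 and up to 3000 bp, the medians were 113 and 118. Over 5000 bp they were further apart, 260 and 292, and regions that wide were 8.61% of members against 21.5% of the regions within 2 kb of a WT region. KO regions at 10 to 100 kb were nearer to members, with medians of 87, 115 and 269 in these 3 classes and 10.97% over 5000 bp. At 2 to 10 kb the medians were 88, 116 and 271, and 11.57% were that wide. The largest drop in the share of wide regions thus lay close to WT regions and not at the 100 kb limit. Fewer wide regions and a slightly lower score at equal width both went with distance from WT regions. Beside the members, 145 KO regions of 10 kb or more lay over 100 kb from WT regions, up to 30.2 kb wide and with a median score of 570.

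The members with the 2 highest scores lay beside region-free runs. The highest score, 34046, belonged to chr6:58773601-58780200, which touched such a run, and the next, 30227, to chr19:27731801-27741200, 200 bp from one. Both overlapped RepID-bound regions. The other 3 of the top 5 were chr7:61237401-61243600 (score 743), chr11:50630801-50639800 (656) and chr6:57343001-57351800 (644), between 170.6 and 1428.4 kb from a run. No other member had a score above 743. Of all members, 178 lay within 1 Mb of a region-free run, and the median score of the 20836 others was 115. The part that closeness to a run has in these scores was not tested.

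The members farthest from any WT region also lay beside a region-free run, in the desert chr3:88368401-93978400. The 5 farthest started between 90249401 and 90420401 on chromosome 3, at gaps of 1881000 to 2052000 bp from the nearest WT region, with scores of 95, 96, 113, 323 and 195 from left to right. Away from such runs, by a choice made after the values were seen, the farthest was chr6:92911201-92912600 (score 98), 1213600 bp from a WT region, in the second of the deserts described above.

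RepID-bound regions were rare at members. Only 43 of the 21014 members (0.205%, 0.148 to 0.276%) had one within 2 kb, against 6.35% of all KO regions narrower than 10 kb. The share was 0.649% at 10 to 100 kb from a WT region, 1.06% at 2 to 10 kb and 16.5% within 2 kb. Of the RepID-bound regions on these chromosomes, 91.2% lay within 2 kb of a WT region, so few were present where members can lie. The median distance from a member to the nearest RepID-bound region was 333 kb. Binding was measured in U2OS cells, so a RepID-bound region here need not be bound in HCT116 cells.

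**Figure D5:**
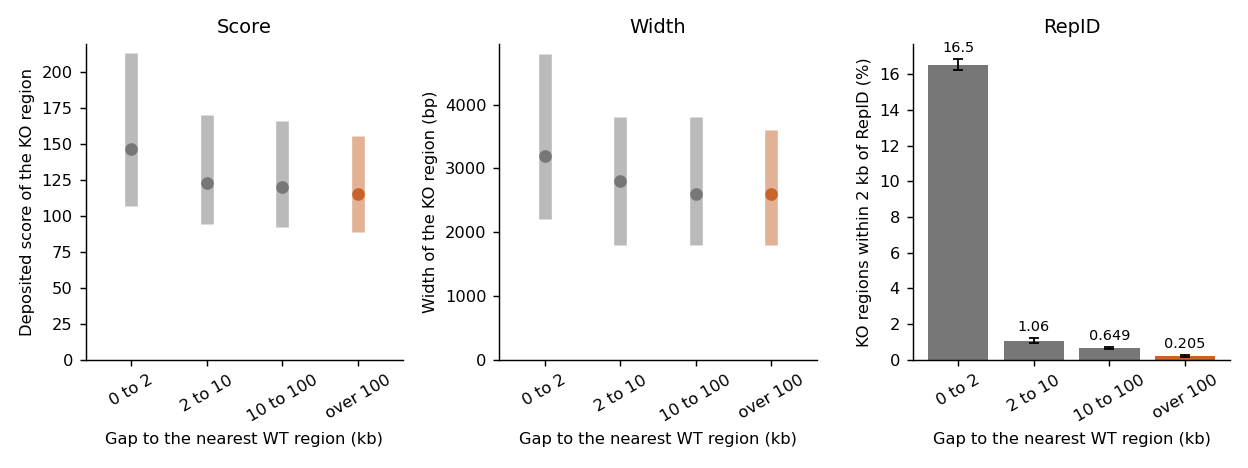
KO regions narrower than 10 kb are grouped by their gap in kb to the nearest WT region, with members in orange. Points and bars in the first 2 panels are medians and quartiles of score and of width in bp, and the third panel gives the percentage with RepID binding within 2 kb and exact binomial 95% intervals, which is 0.205% for members against 16.5% within 2 kb of a WT region.

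The 43 members lay on 13 chromosomes and had a median score of 125 and a median width of 2800 bp, against 115 and 2600 bp for the other members. Of these, 21 overlapped a RepID-bound region by at least 1 bp. The highest MACS score among their RepID-bound regions, 1105, belonged to chr19:27731795-27733647, at the member beside the region-free run. The next was 610, for chr6:58776207-58779615, likewise at a member beside a run. Away from runs, the highest were 546 for chr3:99356571-99357534 and 518 for chr2:115419514-115420617, whose members lay 1666 bp and 1183 bp away with scores of 103 and 86. The fifth, chr6:135818394-135819208 with a score of 477, lay between a pair of members with scores of 102 and 161 and overlapped the second. No member near a RepID-bound region away from runs had a score above 354.

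Seen from the RepID list, 178 of 23897 RepID-bound regions (0.745%) lay more than 100 kb from any WT region, all of them in desert cores. Their median MACS score was 164 and their median width 448.5 bp, against 199 and 560 bp for all RepID-bound regions. A KO region lay within 2 kb of 45 of the 178 (25.3%, 19.1 to 32.3%), against 52.4% of all RepID-bound regions. In the cores, without region-free runs, 27.8% of positions lay within 2.2 kb of a KO region, the distance that allows for the width of a RepID-bound region. KO regions covered the centres of 22 of the 178 (12.4%, 7.91 to 18.1%), and 12.1% of positions in the cores. The interval of the first share spans the second, so no difference was detectable with 178 regions. Outside the cores a KO region lay within 2 kb of 52.6% of RepID-bound regions, and 44.4% of positions lay within 2.2 kb of one. There KO regions covered the centres of 19.9% of RepID-bound regions and 22.7% of positions, so the 2 measures differed in direction. Inside WT regions, which held the centres of 20493 RepID-bound regions, KO regions covered 20.5% of those centres and 42.1% of positions.

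The 5 RepID-bound regions in desert cores with the highest MACS scores were chr10:42392170-42397291 (2051), chr10:42383245-42392148 (1853), chr22:28837928-28839488 (1303), chr19:27731795-27733647 (1105) and chr10:63422445-63423170 (868). The nearest KO regions were 58509, 63652 and 9712 bp away from the first 3 and 2844 bp away from the last, and only the chromosome 19 region was overlapped. The first 2 and the fourth lie beside region-free runs, the one on chromosome 10 ending at 42383200.

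Desert cores with and without RepID-bound regions held members at like densities, though the deserts differed in length. Without deserts that hold a region-free run, 144 deserts with a RepID-bound region in the core had 39.4 members per Mb of core and 2245 without had 40.5. Their median lengths were 456.1 and 320.8 kb, and densities were not compared at equal length. Of the 2100 filled deserts, 1677 (79.9%) had no RepID-bound region anywhere between their edges.

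WT regions at the edges of deserts were overlapped by KO regions less often than other WT regions. The 4045 edge regions had a median score of 80 and a median width of 1600 bp, against 126 and 2400 bp for the 73447 others. A KO region overlapped 1992 of them (49.2%, 47.7 to 50.8%), against 61.6% of all WT regions on these chromosomes and 62.3% of the others. The edge regions were also narrower. Among WT regions over 1000 and up to 2000 bp wide the shares overlapped were 43.8% (41.4 to 46.1%) of edge regions and 53.8% of others. In the 117 edge regions wider than 5000 bp the share was 83.8% (75.8 to 89.9%), against 78.2%. RepID-bound regions lay within 2 kb of 23.9% of edge regions (22.6 to 25.3%), against 18.8% of all WT regions. Among edge regions near a RepID-bound region 41.9% were overlapped by a KO region, and among the other edge regions 51.6%. The direction was the same in WT regions not at an edge, where 57.7% of those near a RepID-bound region and 63.3% of the rest were overlapped.

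The same rule with the lists exchanged found far fewer regions. Of the 72071 WT regions narrower than 10 kb, 336 (0.466%, 0.418 to 0.519%) lay more than 100 kb from any KO region. The KO list left 136 deserts of its own, which spanned 137.7 Mb. With only the 77492 highest-scoring KO regions, 7869 of 73786 KO regions (10.7%, 10.4 to 10.9%) lay in WT deserts, and 1182 WT regions (1.64%, 1.55 to 1.74%) lay in deserts of that KO list. The 2 shares lay closer together with lists of equal length, and KO regions in WT deserts remained the larger. Lists of equal length can still differ in depth by an unknown amount.

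Members just inside the limit of distance had like scores and widths to KO regions just outside it, and RepID binding was rare at both. At gaps of more than 100 and up to 110 kb there were 2164 members with a median score of 120 and a median width of 2600 bp, and at more than 90 and up to 100 kb there were 2394 KO regions with medians of 119 and 2600 bp. RepID binding within 2 kb was found for 4 of the first (0.185%) and 11 of the second (0.459%), small counts that are given as a description. The 46 members at the smallest gap, 100200 bp, included chr1:95883601-95888800 (score 222), chr1:170526001-170529000 (130), chr1:248201001-248203400 (99), chr2:33601801-33602600 (56) and chr2:177154801-177157200 (109). Exactly at 100000 bp, and so excluded, were 42 regions. The first 5 of them were chr1:90720001-90724800 (207), chr1:121323001-121330200 (236), chr1:177411601-177414200 (124), chr1:190892801-190894800 (95) and chr1:217440601-217445600 (206). At the limit of width, 11 members were 9800 bp wide and 14 excluded regions 10000 bp, with median scores of 409 and 436.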

How the data were processed

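The authors called RepID-bound regions of U2OS cells with MACS against genomic input. For nascent strands the methods describe SICER in U2OS cells only, so the caller and control used for the HCT116 lists are not given in the sources used here. The deposited score is 1 number per region, for RepID the score of MACS and for nascent strands a whole number of unstated meaning. Per the labels, processing used hg19, MACS and SICER. Only called regions were used, and the genomic control was not analysed here.

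Gaps are the bases between region ends. Densities count region centres, and coverage was read on a grid of 200 bp between the first and last WT regions of each chromosome. Intervals are exact binomial (shares), exact Poisson (densities) and binomial order-statistic (medians) at 95%. Python 3.11.15, numpy 2.4.6, pandas 2.3.3, SciPy 1.17.1 and matplotlib 3.10.9 were used, and the distance functions gave the answers of bedtools 2.31.1 on simulated regions. Members, deserts and named regions (the top 5 by members, score, distance or RepID score, and those nearest to the limit) were chosen with earlier results of these data known. Genes, base composition and sequences were not analysed, since the reference at hand is on another build.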

Additional observations from a re-analysis of the deposited data

How the results depend on the processing

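With no replicates, a share, density or median counts as changed when it left the main 95% counting interval, and a count when it changed by over 1.5 times. Of 69 alternatives, 26 did not change by this measure and 43 did. Beside the respective rest of the KO list, the density was lower under all 8 of its alternatives, spacing wider under all 8, the median score lower under all 8 and the RepID share lower under all 11. The direction of the RepID share was close to fixed by the rule. Every setting keeps members far from WT regions, and 91.2% of RepID-bound regions lay within 2 kb of one. Alternatives without region-free runs, on desert edges and on core RepID-bound regions near KO regions were added after seeing the data. The cause of the changes was not tested, beyond the number of regions that each setting leaves. No paired analysis was possible because each condition has 1 library. The unknown depth limits every statement on regions found in 1 list only.

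With a gap over 50 kb there were 37673 members in 4398 deserts, 39.5 KO centres per Mb, a median spacing of 9.6 kb, 0.308% of members near RepID, 419 RepID-bound regions in cores and 615 WT regions in KO deserts. With a gap over 200 kb these were 8261 members, 757 deserts, 25.9 per Mb, 12.6 kb, 0.121% and 50 RepID-bound regions, and the median score was 112. KO scores at or above the median left 8214 members, 13.8 per Mb, a spacing of 21.6 kb, a median score of 169 and a median width of 4000 bp. KO lists of equal length to the WT list left 7869 members, 13.3 per Mb, 22 kb, a score of 171, a width of 4000 bp and 1182 WT regions in KO deserts, with 32.5% of desert-edge WT regions overlapped and 12.9% of core RepID-bound regions near a KO region. WT scores at or above the median gave 52423 members, 44.2 per Mb, 9.0 kb, a score of 120, a width of 2800 bp, 0.996% of members near RepID and 1261 RepID-bound regions in cores. Merging KO regions less than 1 kb apart gave 33.3 per Mb and 11.4 kb. The share of members near RepID was 0.0999% with 1 bp of overlap, 0.386% within 5 kb and 0.0809% with the higher-scoring RepID-bound regions, of which 72 lay in cores. Without region-free runs the density was 41.1 per Mb. Of desert-edge WT regions, 43.8% of those of 1 to 2 kb were overlapped, and 60.4% of all had a KO region within 2 kb.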

Other observations

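Chromosome X, which was left out of the selection, went the other way. The KO list held 190 regions there and the WT list 1304, or 0.146 KO regions for each WT region, against 2.06 on chromosomes 1 to 22. Of the 188 KO regions narrower than 10 kb on chromosome X, 45 lay more than 100 kb from a WT region, in or beside the 187 WT deserts (113.4 Mb) of that chromosome. Of the 1268 WT regions of that width, 852 (67.2%) lay more than 100 kb from any KO region. Why chromosome X differed was not tested.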
